A study of Mus musculus with 11 samples.

Results

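The cytosolic ribosomal protein genes encode the protein part of the ribosome outside the mitochondria. They were taken as the protein-coding genes of GRCm38 whose symbol is Rpl or Rps followed by a number with at most 1 letter (a, x or y), together with Rplp0, Rplp1, Rplp2 and Rpsa, on autosomes. The rule gave 72 genes of the 20717 protein-coding genes tested. Of these, 43 belong to the large subunit and 29 to the small subunit, and 4 X-linked genes were left out by the rule. All 72 had enough tiles to be tested, and none of their 346 tiles of 2 kb was removed by the filter on low or high values.

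The ribosome joins amino acids into proteins, and its small subunit reads the mRNA while its large subunit forms the peptide bond. The ribosomal protein genes are expressed in nearly all cells, from short genes with CpG-rich promoters, and their mRNAs begin with a C followed by a run of pyrimidines. 5-Hydroxymethylcytosine (5hmC) is made from 5-methylcytosine by the TET enzymes, tends to lie in the bodies and at the enhancers of active genes, and is scarce at unmethylated CpG islands.

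The data are 11 libraries from mouse embryonic stem cells and from epiblast-like cells (EpiLC), an early stage of their differentiation. The TET_WT line, the parent from which a triple Tet1, Tet2 and Tet3 knockout was made, was measured as stem cells in 2i/Lif at day 0 (3 libraries) and as EpiLC at day 1 (2 libraries) and day 2 (3 libraries). The DNMT_WT line, the parent of a triple Dnmt1, Dnmt3a and Dnmt3b knockout, was measured as EpiLC at day 2 (3 libraries). All 4 groups are wild type for both sets of enzymes. No knockout cells are analysed here. The labels give neither the strain of a line nor whether it is 1 clone, and they do not say whether libraries came from separate cultures, so p-values measure the spread between these libraries, which may be technical.

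The libraries held 7342015 to 51604034 reads. TET_WT day 1 replicate 2 was the smallest. TET_WT day 0 replicate 2 stood apart from the other day 0 libraries. The chi-square of its reads per gene (span plus 2 kb on either side) against theirs, divided by its degrees of freedom, was 31.0 and 31.7. It was 4.69 between replicates 1 and 3 and 2.18 to 3.39 within the other groups. The values are 5hmC and not expression, so the labelled cell types could not be checked by marker expression. At the marker genes themselves, limma called 5hmC higher at day 2 than at day 0 in TET_WT at 10 of 10 naive pluripotency genes. It called 4 of 7 epiblast genes and 1 of 15 fibroblast and feeder genes higher (adjusted p under 0.05). No gene of these 3 lists was called lower. Over all genes, 15.3% were called higher and 2.51% lower. RPKM is relative to each library's total, so a change in the overall amount of 5hmC cannot be seen. In cells measured in bulk, more modified cells and more modification per cell cannot be told apart.

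The profiles below are centred on the start site, so promoters of 6 members are shown first. A link between these sequences and 5hmC was not tested. The first 3 (Rpl15, Rpl9 and Rps28) had the largest rise in the value of the tile with the start site between day 0 and day 2, and Rpl31 had the largest fall. Rplp0 and Rps19 were added after their values were seen, as members that were higher in DNMT_WT. Each piece runs from 150 bases before to 30 bases after the RefSeq start, 5′ to 3′ on the strand of the gene (GRCm38.p6). Capitals mark 5 motifs, searched on both strands: CCGGAAG (an ETS-type motif), GGGCGG (a GC box), ATGGCG (a YY1-type motif), TATAAA (the TATA box) and CTTTCC (letters common around the starts of these genes). The Rpl9 piece holds none of the 5.
Rpl15: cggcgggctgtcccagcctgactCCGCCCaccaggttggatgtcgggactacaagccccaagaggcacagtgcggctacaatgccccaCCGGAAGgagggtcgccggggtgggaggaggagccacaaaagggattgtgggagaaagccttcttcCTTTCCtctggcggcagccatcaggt
Rpl9: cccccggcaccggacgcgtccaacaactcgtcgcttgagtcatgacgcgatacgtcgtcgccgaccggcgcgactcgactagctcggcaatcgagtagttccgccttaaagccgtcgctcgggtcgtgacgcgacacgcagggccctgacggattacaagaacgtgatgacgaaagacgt
Rps28: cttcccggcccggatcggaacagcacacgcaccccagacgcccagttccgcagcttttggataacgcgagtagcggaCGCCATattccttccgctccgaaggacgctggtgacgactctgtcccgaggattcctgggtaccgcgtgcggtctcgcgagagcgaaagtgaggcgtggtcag
Rpl31: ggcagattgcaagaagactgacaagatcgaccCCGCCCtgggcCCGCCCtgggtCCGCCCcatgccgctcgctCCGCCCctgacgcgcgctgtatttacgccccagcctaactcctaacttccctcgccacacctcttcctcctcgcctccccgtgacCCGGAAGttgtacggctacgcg
Rplp0: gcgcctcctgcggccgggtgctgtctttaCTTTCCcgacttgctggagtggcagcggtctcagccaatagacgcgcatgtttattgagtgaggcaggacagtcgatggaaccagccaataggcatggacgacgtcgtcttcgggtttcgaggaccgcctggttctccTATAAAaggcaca
Rps19: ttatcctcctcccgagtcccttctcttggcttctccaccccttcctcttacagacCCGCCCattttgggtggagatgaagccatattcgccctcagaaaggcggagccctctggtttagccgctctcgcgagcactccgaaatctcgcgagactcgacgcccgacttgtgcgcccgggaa

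The Rpl15 piece lies at chr14:18270957-18271136, minus strand. That of Rpl9 lies at chr5:65391402-65391581, minus strand. For Rps28 it is chr17:33824533-33824712, minus strand. Rpl31 is at chr1:39367701-39367880, plus strand. Rplp0 is at chr5:115559317-115559496, plus strand. Rps19 is at chr7:24884442-24884621, plus strand. RefSeq gave a start for 52 of the 72 members and for 17274 protein-coding genes in all. A RefSeq start may lie upstream of the start used in these cells. For some members the RefSeq start taken here lay inside the annotated span. The distance from the 5′ end of the span was largest for Rpl19 (4707 bases), Rpl18 (2604), Rps2 (1942) and Rpl38 (762).

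Over the 300 bases from 250 before to 50 after the start, the 52 members had a median of 22 CpG and a GC content of 58.7%, against 14 CpG and 56.3% over all genes. Over 20 CpG were found in 61.5% of the members' promoters and in 34.1% of all promoters. CCGGAAG, on either strand, was in 40.4% of the members' promoters and 12.1% of all. ATGGCG was in 30.8% against 11.4%, CTTTCC in 46.2% against 26.1%, and GGGCGG in 57.7% against 46.9%. TATAAA was the exception, at 7.69% against 13.4%. A C followed by 4 pyrimidines lay at the annotated start in 23.1% of the members and 2.19% of all genes, and within 15 bases of it in 48.1% against 19%. These are matches of letters, not measured binding sites.

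The ribosomal protein genes were poor in 5hmC. A gene's level is its mean log2 RPKM over the 2 kb tiles that overlap its span or the 2 kb on either side. At day 0 the median of the 72 genes was -1.75 and that of all genes -0.31, and 72 of 72 members lay below the median gene. At day 1 the medians were -1.61 and -0.29, again with 72 below. At day 2 they were -1.30 and -0.18, with 68 below. In DNMT_WT at day 2 they were -0.19 and -0.04, and 50 of 72 members (69.4%) were below. By library, the median of the members was -1.85, -1.62 and -1.83 in the day 0 replicates 1 to 3, -1.40 and -1.81 in the day 1 replicates 2 and 3, -1.22, -1.08 and -1.24 at day 2, and -0.21, -0.28 and -0.26 in DNMT_WT. The day 2 and DNMT_WT libraries each lay above every library of the groups before them in this order. The day 0 and day 1 libraries overlapped.

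**Figure D1:**
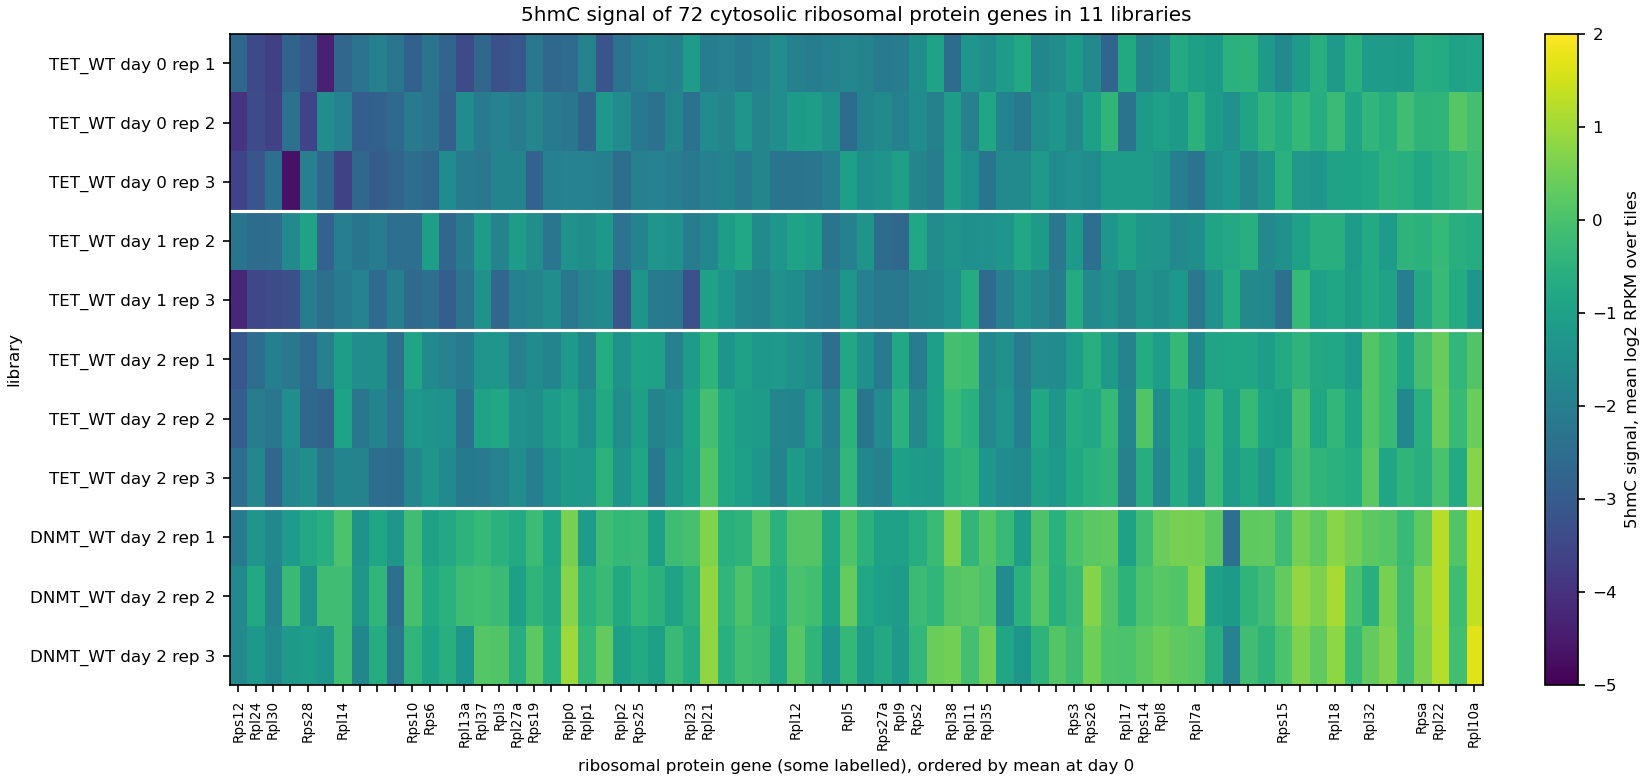
Mean log2 RPKM (colour) of the 72 ribosomal protein genes (horizontal, ordered by their mean at day 0) in the 11 libraries (vertical, white lines between groups). The 3 DNMT_WT libraries are the brightest, with medians of -0.21, -0.28 and -0.26, and the day 0 libraries are among the darkest.

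The lowest members at day 0 were Rps12, Rpl24 and Rpl30. Rps12 (chr10:23785183-23787383) had -2.67, -3.93 and -3.58 in the 3 libraries, Rpl24 (chr16:55966275-55971437) had -3.45, -3.40 and -3.15, and Rpl30 (chr15:34440505-34443276) had -3.68, -3.64 and -2.43. These ranges overlapped, so the order among them is not resolved. Among the highest were Rpl10a and Rpl22. Rpl10a (chr17:28328471-28331033) had -0.87, -0.09 and -0.17, and Rpl22 (chr4:152324436-152334082) had -0.69, -0.43 and -0.62. These overlapped as well, and no library of either fell within the range of the lowest 3.

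Features of the gene models bear on every level given here. The genes are short (median 3179 bases, 982 to 11774), so a window holds 3 to 9 tiles, and 156 of the 346 tiles (45.1%) also touch another gene. The annotation holds 313 pseudogenes with ribosomal protein names, and reads from exons may have been placed in those copies or discarded. How far this lowers the exonic tiles was not tested.

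The low level came from a trough that began at the start site and ran through the gene. For the 52 members with a start, the mean log2 RPKM at day 0 was 0.17 in the tile 12 kb upstream, -2.80 in the tile with the start, -3.0 in the next tile downstream (2 kb), -1.38 at 4 kb, -0.58 at 6 kb and 0.14 at 12 kb. Of these tiles, 52 of 52 at the start, 49 at 2 kb, 31 at 4 kb and 8 at 6 kb overlap the gene's own span. Trough depth was defined as the mean of the start tile and the next one minus the mean of the flanking tiles 8 to 12 kb away on both sides. Its median at day 0 was -3.09 over the members and -0.43 over the other 17222 genes, and 52 of 52 members were below 0. In the other genes, 61.2% were below 0 and 5.45% were below the members' median. The flanks differed as well as the start. At day 0 the other genes had -1.05 at 12 kb upstream, -1.66 in the start tile and -0.81 at 12 kb downstream. The members' median depth was -2.82 at day 1, -2.92 at day 2 and -2.37 in DNMT_WT, with 51, 52 and 50 of 52 members below 0. Over the other genes the medians were -0.41, -0.23 and -0.04, with 61.4%, 56.4% and 51.2% below 0.

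CpG-rich promoters in general have such a trough, so the members were set beside the 5852 other genes with over 20 CpG in the promoter. Among the 32 members of that class, the median of the start tile at day 0 was -2.75, against -2.09 in the other genes. At day 1 it was -3.11 against -2.11, at day 2 -3.59 against -1.49, and in DNMT_WT -1.94 against -0.70. These are medians of levels; the median over genes of the day 2 minus day 0 difference was 0.047 for the 32 members and 0.39 for the other genes. The mean profile of the other CpG-rich genes rose back to -0.91 at 2 kb and -0.25 at 4 kb at day 0, where all 52 members had -3.0 and -1.38. Members with fewer CpG also had low start tiles at day 0. Their medians were -2.75 (6 to 10 CpG, 4 members), -3.15 (11 to 15 CpG, 7 members) and -2.83 (16 to 20 CpG, 9 members). Other genes of these classes had -0.23, -1.31 and -1.65, and other genes with 0 to 5 CpG had -2.12.

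**Figure D2:**
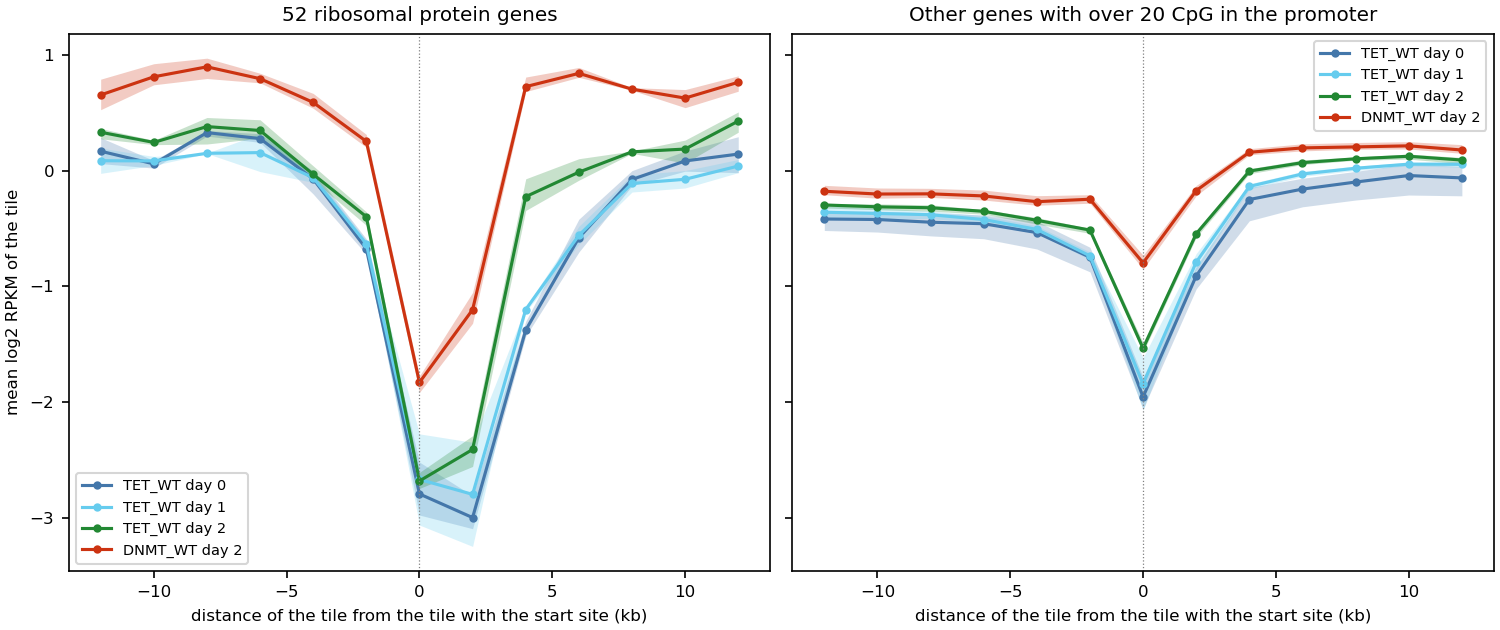
Mean log2 RPKM (vertical) by distance of the tile from the tile with the start site (horizontal, kb, transcription to the right) for 52 ribosomal protein genes (left) and 5852 other genes with over 20 CpG in the promoter (right). Lines are group means and bands run from the lowest to the highest library. At day 0 the members have -2.80 in the start tile, -3.0 at 2 kb and -1.38 at 4 kb. The other genes have -1.96, -0.91 and -0.25 there.

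The start tiles held few reads. Their median over the 52 members was 7 or 8 reads in day 0 replicates 3 and 1, 5 in day 0 replicate 2, 1 and 3 in the day 1 libraries, 2 to 3.5 at day 2 and 4 to 9 in DNMT_WT. A tile without reads has a value set by the depth of its library, so small differences between start tiles were not detectable at this depth.

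The first comparison asked what 2 days of conversion from naive stem cells to EpiLC did to 5hmC at these genes in TET_WT. Of the 72 members, 19 rose and 0 fell by limma at adjusted p under 0.05 (26.4%). Over all genes, 15.3% rose and 2.51% fell. The difference was positive at 60 of 72 members, with a median of 0.62 on the log2 RPKM scale against 0.09 over all genes. The large subunit had 13 of 43 members called (30.2%) and the small subunit 6 of 29 (20.7%). The difference between the subunits was not tested.

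In the large subunit, Rpl21 (chr5:146832890-146837032) rose most. Its levels were -2.04, -1.62 and -1.96 at day 0 and -0.46, -0.09 and 0.10 at day 2, with no overlap (difference 1.72, SE 0.21, limma adjusted p = 1.71e-04). Rpl14 (chr9:120571517-120574653) went from -2.69, -1.91 and -3.65 to -1.09, -0.94 and -1.83, a difference of 1.46 (SE 0.37, adjusted p = 0.0152). Its groups lay close together, and the call was lost without day 2 replicate 1 or 2 (adjusted p = 0.0588 and 0.0751). Rpl38, whose protein is needed for the translation of Hox mRNAs in the mouse embryo, went from -2.51, -1.13 and -1.11 to -0.07, -0.27 and -0.54 (difference 1.29, adjusted p = 0.0124), a call lost without day 2 replicate 1 (adjusted p = 0.0509). Rpl24, among the lowest at day 0, reached -2.51, -2.04 and -1.76 (difference 1.23, adjusted p = 0.0196), and its call was lost without day 0 replicate 1 or day 2 replicate 2 or 3 (0.0598, 0.075 and 0.0969).

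Rpl5 and Rpl11 bind 5S rRNA and, outside the ribosome, the p53 regulator MDM2. Rpl11 (chr4:136049354-136053393) had -1.32, -1.96 and -1.47 at day 0 and -0.18, -0.55 and -0.43 at day 2 (difference 1.19, SE 0.25, limma adjusted p = 0.00501). Rpl5 (chr5:107900508-107909005) had -1.76, -2.52 and -1.05, then -0.81, -0.48 and -0.36 (difference 1.23, adjusted p = 0.0191), and was not called without day 2 replicate 2 or 3 (0.0672 and 0.0746). Both pairs of groups were separate. Rpl22, a member with a paralog (Rpl22l1), rose by less but with little spread, from -0.69, -0.43 and -0.62 to 0.37, 0.39 and -0.01 (difference 0.82, SE 0.13, adjusted p = 7.81e-04).

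The stalk of the large subunit, which recruits translation factors, is built from Rplp0, Rplp1 and Rplp2. Rplp0 (chr5:115559467-115563729) went from -2.54, -2.24 and -1.89 to -1.20, -0.93 and -1.19 (difference 1.12, SE 0.24, limma adjusted p = 0.00602). Rplp1 and Rplp2 had differences of 0.67 and 0.70 and were not called (adjusted p = 0.148 and 0.143). Rpl3, which lies near the peptidyl transferase centre, had 0.99 with wide spread at day 0 (-3.26, -1.90 and -1.83) and was not called (0.111). Rpl13a, known for a role in translational silencing outside the ribosome, had 0.15 (0.874). Its day 0 values of -3.39, -1.61 and -2.15 enclosed all 3 day 2 values.

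In the small subunit, Rps10 (chr17:27630415-27635244) went from -2.84, -2.12 and -2.48 to -0.90, -1.27 and -1.77 (difference 1.16, limma adjusted p = 0.00896), a call lost without day 2 replicate 1 (0.0523). Rps25, required for translation from several viral internal ribosome entry sites, had tight groups of -1.97, -2.18 and -1.94 and then -0.93, -1.03 and -0.89 (difference 1.08, SE 0.20, adjusted p = 0.00285).

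Rps14, the gene tied to the anaemia of the human 5q- syndrome, had a difference of 0.97 (limma adjusted p = 0.0128), lost without day 0 replicate 1 or day 2 replicate 2 (0.0521 and 0.0718). Rps6, the target of S6 kinase, had 0.99 (0.0392) and lost its call in most fits that left out 1 library. Rps3, at the mRNA entry channel, had 0.62 and just missed the threshold (0.0507). Rps19, the first gene linked to Diamond-Blackfan anaemia, had 0.55 (0.223). Rpsa, also called the laminin receptor, had 0.22 (0.488), Rps2 0.00 (0.995) and Rps27a, made as a fusion with ubiquitin, -0.18 (0.718). Rps12, among the lowest at day 0, had 0.59 (0.485).

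Of the 13 called genes tested this way, 5 kept the call in every fit that left out 1 library: Rpl21, Rpl22, Rpl11, Rplp0 and Rps25. The count of 19 was sensitive to single libraries. It was 9, 11 and 12 without day 2 replicates 2, 3 and 1, where 9.75%, 10.2% and 11.5% of all genes rose, and 26 without day 0 replicate 2, the library that stood apart, where 22.0% rose. In the gene span alone 13 members (18.1%) rose against 14.5% of all genes, a share near the background.

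**Figure D3:**
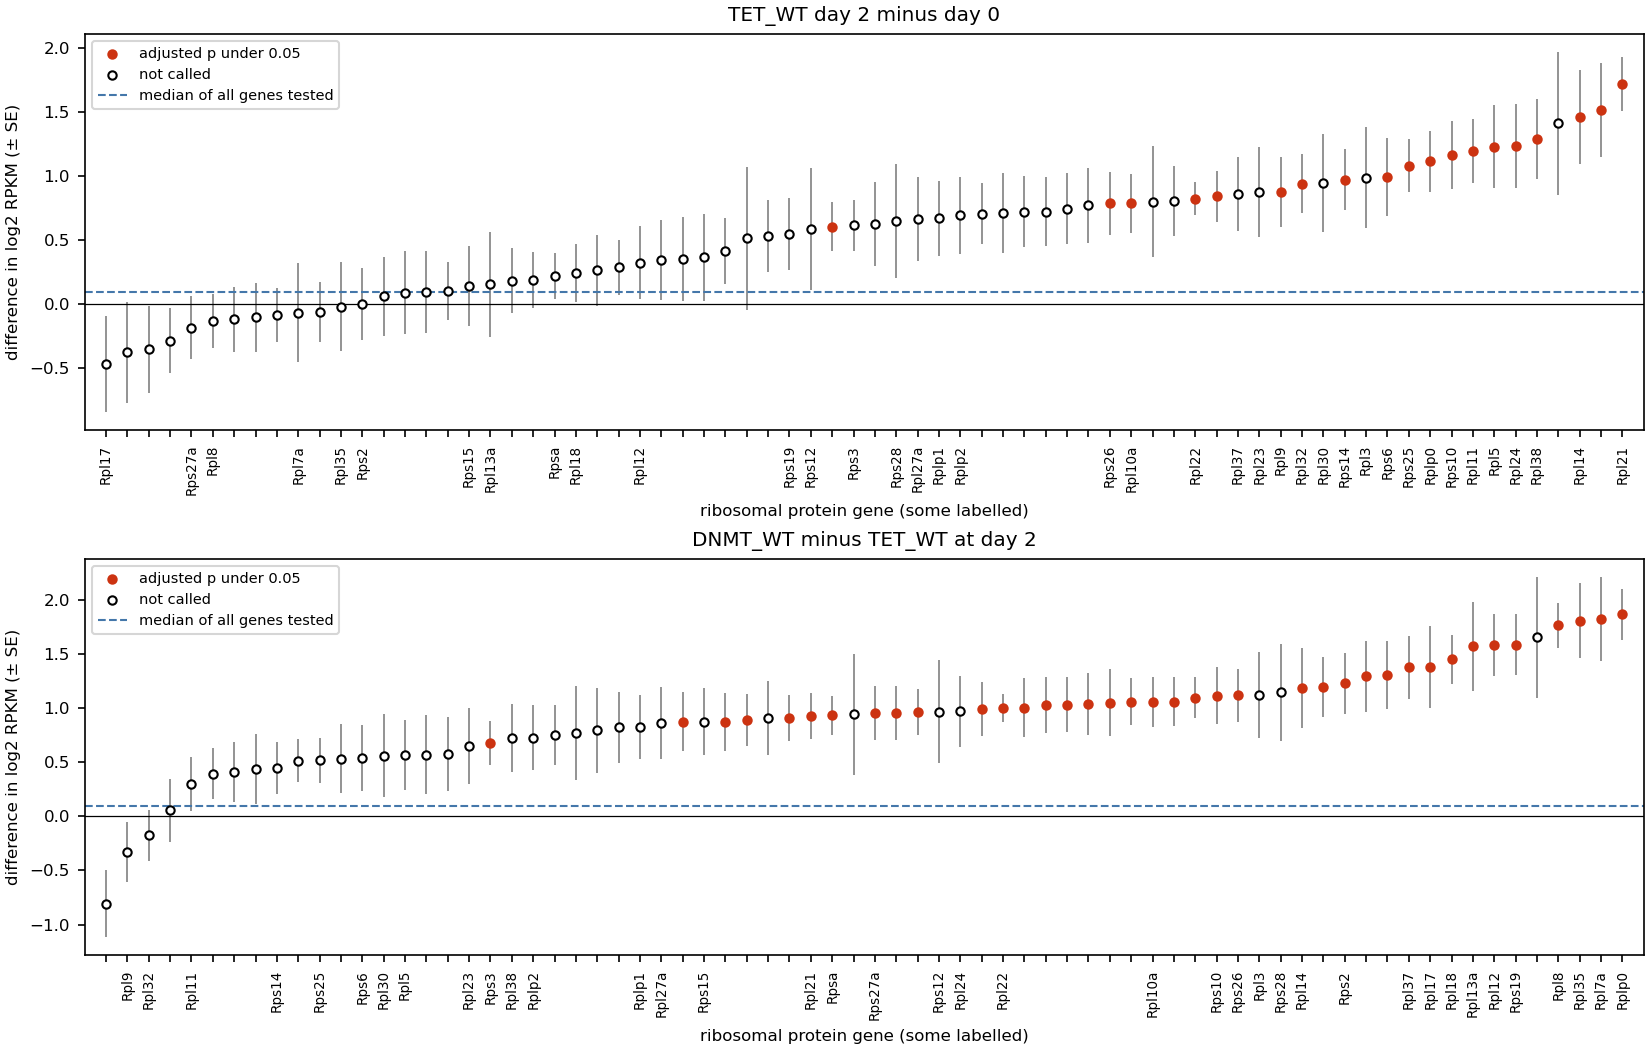
Difference in log2 RPKM (vertical, bars are the standard error) for each of the 72 genes (horizontal, ordered by size) for TET_WT day 2 minus day 0 (top) and DNMT_WT minus TET_WT at day 2 (bottom). Filled points passed limma's adjusted p under 0.05, 19 in the top panel and 38 in the bottom panel, and all of them lie above 0. The dashed line is the median of all genes (0.09 and 0.10).

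The mean rise was larger downstream of the start than in the start tile, a difference that was not tested. The mean difference between day 2 and day 0 over the 52 members was 0.11 in the start tile, 0.59 at 2 kb, 1.15 at 4 kb and 0.57 at 6 kb. The start tile had 0.021 without day 0 replicate 3, 0.066 without day 0 replicate 1, 0.25 without day 0 replicate 2 and 0.33 with every library thinned to the same depth. Over the other genes with a start it was 0.36, 0.26, 0.17 and 0.16, and over those with over 20 CpG it was 0.42, 0.36, 0.25 and 0.23. By single tiles, 70 of the 346 tiles were called higher (20.2%) and 0 lower, where 5.33% of all tiles were higher and 2.68% lower. At 4 kb, 22 of 52 member tiles were higher (42.3%), against 10.9% of the tiles at that place in other genes. In the start tile 2 of 52 were higher (3.85%), against 14.6% in other genes, and 0 were lower, where 1.21% of all start tiles were. The 2 were Rps24 (1.81, limma adjusted p over all tiles = 0.0050) and Rpl26 (1.21, 0.0064), named after their values were seen. At equal depth, 7 of the 346 tiles were called, while the mean difference at 4 kb was 0.95. The share of all tiles called at equal depth was not computed.

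Rpl31 was chosen by the rule for its start tile, which had 18, 5 and 11 reads at day 0 and 0, 1 and 2 reads at day 2, a fall of 2.27 in log2 RPKM that was not called (limma adjusted p = 0.115). The tile 4 kb downstream (chr1:39370001-39372000) had 3, 3 and 14 reads at day 0 and 29, 34 and 30 at day 2, a rise of 3.39 that was called. For Rpl11 the tile at 4 kb (chr4:136048001-136050000) had 8, 8 and 16 reads and then 40, 30 and 45. In both genes the day 2 libraries had more reads there than any day 0 library, at lower depth than day 0 replicates 1 and 3. The start tile of Rpl15 had 5, 1 and 0 reads at day 0 and 5, 9 and 6 at day 2, and that of Rps28 1, 1 and 2 and then 5, 1 and 4. Neither was called (0.0527 and 0.276), nor was that of Rpl9 (2.03, 0.204).

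The day 1 libraries divide the 2 days into 2 steps. With 2 libraries at day 1, 1 of them the smallest of all, an absence of calls does not place these differences in time. Between day 0 and day 1, 0 of 72 members were called in either direction by limma, and 0% of all genes were (0 of 20717). At an unadjusted p under 0.05 there were 11 members (15.3%), against 12.3% of all genes, and voom on the recovered reads also called 0 members. By single tiles, 1 of 346 was higher and 2 were lower, where 0.601% of all tiles were higher and 0.409% lower. The median difference was 0.13 against 0.09 over all genes. The largest positive differences were those of Rps28 (1.38, adjusted p = 0.29), Rpl37 (1.06, 0.21) and Rpl27a (0.78, 0.411). The largest negative ones were Rps15 (-0.96, 0.291), Rpl9 (-0.76, 0.347) and Rpl23 (-0.76, 0.451). Rpl37 (chr15:5116613-5119140) had -2.69, -2.08 and -2.22 at day 0 and -1.12 and -1.42 at day 1, without overlap. Rps28 (chr17:33823036-33824562) had -3.12, -3.59 and -1.96 and then -0.97 and -2.05, which overlap. The median was -0.06 without day 1 replicate 2.

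Between day 1 and day 2, 10 members rose and 0 fell (13.9%), where 8.99% of all genes rose and 0.599% fell. The median difference was 0.42 against 0.00 over all genes, and 60 of 72 were positive. It was 0.24 without day 1 replicate 3 and 0.57 without day 1 replicate 2. The 10 were Rpl9 (1.63, limma adjusted p = 0.00544), Rpl23 (1.63, 0.0195), Rpl10a (1.40, 0.00478), Rps26 (1.38, 0.0069), Rplp2 (1.30, 0.0282), Rpl21 (1.23, 0.0063), Rps10 (1.19, 0.0235), Rps14 (0.93, 0.0448), Rpl32 (0.89, 0.0494) and Rpl22 (0.54, 0.0293). Rpl23, which like Rpl5 and Rpl11 binds MDM2, had -2.07 and -3.26 at day 1 and -1.15, -0.95 and -1.0 at day 2. Rpl9 had -2.66 and -2.18, then -0.80, -0.52 and -1.04. None of the 10 calls held in every fit that left out 1 library, and the count was 4 and 3 without day 1 replicates 2 and 3 (5.56% and 4.17% of the members), where 4.58% and 6.52% of all genes rose. It was 6, 4 and 6 without day 2 replicates 1, 2 and 3, where 6.41%, 4.92% and 5.38% rose. By single tiles, 43 of 346 were higher (12.4%) and 0 lower, where 2.41% of all tiles were higher and 0.551% lower. With no variance trend 0 of the 346 tiles were called, and at equal depth 1. The shares of all tiles called in these settings were not computed. This comparison shares the day 2 libraries with the one against day 0.

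The second line was compared at the same day. At day 2, 38 of 72 members were higher in DNMT_WT than in TET_WT and 0 were lower (52.8%), where 14.9% of all genes were higher and 4.07% lower. The median difference was 0.95 on the log2 RPKM scale, against 0.10 over all genes, and 69 of 72 members were positive. Both subunits took part, with 24 of 43 members of the large subunit (55.8%) and 14 of 29 of the small subunit (48.3%) called. The labels give no batch, and the line, its culture and the preparation of its libraries cannot be told apart here.

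Rplp0, the stalk protein, had the largest difference. It had -1.20, -0.93 and -1.19 in TET_WT and 0.56, 0.74 and 0.98 in DNMT_WT (difference 1.87, SE 0.24, limma adjusted p = 3.40e-04). Rpl8 (chr15:76904071-76906318), near the peptidyl transferase centre, had the smallest p among the members. Its values were -1.07, -1.51 and -1.72 and then 0.40, 0.17 and 0.42 (difference 1.77, SE 0.21, adjusted p = 2.13e-04). In TET_WT it had not differed between day 0 and day 2 beyond its spread (-0.13, 0.762). Rpl7a (chr2:26910685-26913312) had -1.74, -1.02 and -1.31 and then 0.54, 0.69 and 0.17 (1.82, adjusted p = 0.00679). Rpl35 (chr2:39001581-39005131) had -1.75, -1.70 and -1.32 and then 0.13, 0.01 and 0.52 (1.81, 0.00402). In all 4 genes every DNMT_WT library lay above every TET_WT library.

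Rps19 (chr7:24884592-24889811) led the small subunit among the called members. It had -1.61, -1.53 and -2.0 in TET_WT and -0.20, -0.41 and 0.23 in DNMT_WT (difference 1.59, SE 0.28, limma adjusted p = 0.0025). Rpl12 (chr2:32961712-32964045), at the base of the stalk, had 1.59 (0.00282), Rpl18 1.45 (0.00123) and Rpl37 1.38 (0.00659). Rpl13a had 1.57 (0.0181) and Rpl17 1.38 (0.0225), and both calls were lost in several fits that left out 1 library. Rpl22 had 1.0, with 0.37, 0.39 and -0.01 in TET_WT against 1.26, 1.26 and 1.23 in DNMT_WT, where the libraries lay close together (adjusted p = 3.37e-04). Rps2 (1.23, 0.00983), Rpsa (0.93, 0.00394), Rps27a (0.95, 0.0187) and Rps3 (0.68, 0.0321) were also higher. The calls of Rps2, Rps27a and Rps3 were lost in some fits that left out 1 library.

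Members not called included Rpl3 (1.12, limma adjusted p = 0.0658), Rpl38 (0.72, 0.13), Rpl5 (0.57, 0.254), Rps6 (0.54, 0.25), Rps14 (0.45, 0.22) and Rpl11 (0.30, 0.458). The 3 members with negative differences were Rpl15 (-0.81, 0.0873), Rpl9 (-0.33, 0.455) and Rpl32 (-0.18, 0.67), named after their values were seen. Rpl15 had -0.89, -1.06 and -1.13 in TET_WT and -2.43, -1.18 and -1.89 in DNMT_WT, without overlap. The start tile of Rpl9, whose promoter is shown above, was lower in DNMT_WT, with 3, 0 and 1 reads against 17, 9 and 8 (a difference of -3.07, adjusted p over all tiles = 0.037).

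Of the 16 called genes named in this comparison, 11 kept the call in every fit that left out 1 library: Rplp0, Rpl7a, Rpl35, Rpl8, Rps19, Rpl12, Rpl18, Rpl37, Rpl22, Rpsa and Rpl10a. The count of 38 was 22 and 23 without TET_WT replicates 1 and 3 and 24 without DNMT_WT replicate 1 or 2, where 7.77%, 9.55%, 8.81% and 9.34% of all genes were higher.

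Along the genes, the difference between the lines was spread more widely than the one between days. The mean over the 52 members was 0.85 in the start tile, 1.21 at 2 kb, 0.95 at 4 kb and 0.85 at 6 kb, against 0.41, 0.19, 0.07 and 0.05 over the other genes. Over the other genes with over 20 CpG in the promoter it was 0.74, 0.37, 0.16 and 0.13. The mean over the members was still 0.34 at 12 kb downstream and 0.32 at 12 kb upstream, where the other genes had 0.03 and 0.05. For day 2 minus day 0 in TET_WT, the members had 0.29 and 0.16 at these 2 places. By single tiles, 36 of 346 were higher (10.4%) and 2 lower, where 1% of all tiles were higher and 2.24% lower. In the start tile 1 of 52 was higher and 1 lower, where 5.26% of all start tiles were higher and 1.25% lower. At 4 kb, 9 of 52 member tiles were higher (17.3%), against 3.22% in other genes. The tile 2 kb downstream of the start of Rplp0 had 0, 0 and 0 reads in TET_WT and 9, 7 and 13 in DNMT_WT, so no fold is given (limma adjusted p over all tiles = 0.0146). That of Rpl7a had 14, 7 and 9 and then 114, 45 and 68 reads (a difference of 2.75 in log2 RPKM). That of Rps2 had 1, 0 and 6 and then 37, 16 and 38 (3.88, adjusted p = 0.0038). The Rps2 tile (chr17:24722001-24724000) lies beyond the end of the gene's span, at 24721927. These 3 tiles were named after their values were seen. At equal depth, 3 of the 346 tiles were called and the mean difference in the start tile was 0.43. The share of all tiles called in that setting was not computed. The 2 profiles of differences, by day and by line, were not tested against each other.

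Other genes of protein synthesis were given by lists. Of 40 genes of ribosome biogenesis and assembly, 11 rose and 1 fell between day 0 and day 2 (27.5% higher, median 0.20). Nolc1 (1.16), a nucleolar chaperone, and Nob1 (0.90), the nuclease that matures 18S rRNA, had the smallest p. Of 34 translation factors, 9 rose and 0 fell (26.5% higher, median 0.39), led by Eif4g1 (0.84) and Eif4b (0.73) of the cap-binding machinery. Of 78 mitochondrial ribosomal protein genes, 13 rose and 2 fell (16.7% higher, median 0.09), a share near the 15.3% of all genes. Mrps24 (1.68) and Mrpl34 (0.74) had the smallest p among them. Of 14 X-linked, paralogous and fusion ribosomal protein genes, 2 rose and 0 fell (14.3% higher, median 0.20): Rpl7l1 (0.73) and the X-linked Rpl39 (1.09).

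Between the lines, 16 of 40 biogenesis genes were higher in DNMT_WT (40.0%, median 0.46), as were 14 of 34 translation factors (41.2%, median 0.53). Of 78 mitochondrial ribosomal protein genes, 14 were higher (17.9%, median 0.33). Of 14 X-linked, paralogous and fusion genes, 2 were higher (14.3%, median 0.56). In these lists 1 gene was lower, a mitochondrial one. Over all genes 14.9% were higher and 4.07% lower, so the mitochondrial and the X-linked, paralogous and fusion shares were near the background. Between day 0 and day 1 no gene of these lists was called. The starting levels differed too. At day 0 the median level was -0.16 for the mitochondrial ribosomal protein genes and -0.17 for the biogenesis genes, against -1.75 for the cytosolic ribosomal protein genes, with -1.10 for the translation factors between them. Differences between lists were not tested.

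**Figure D4:**
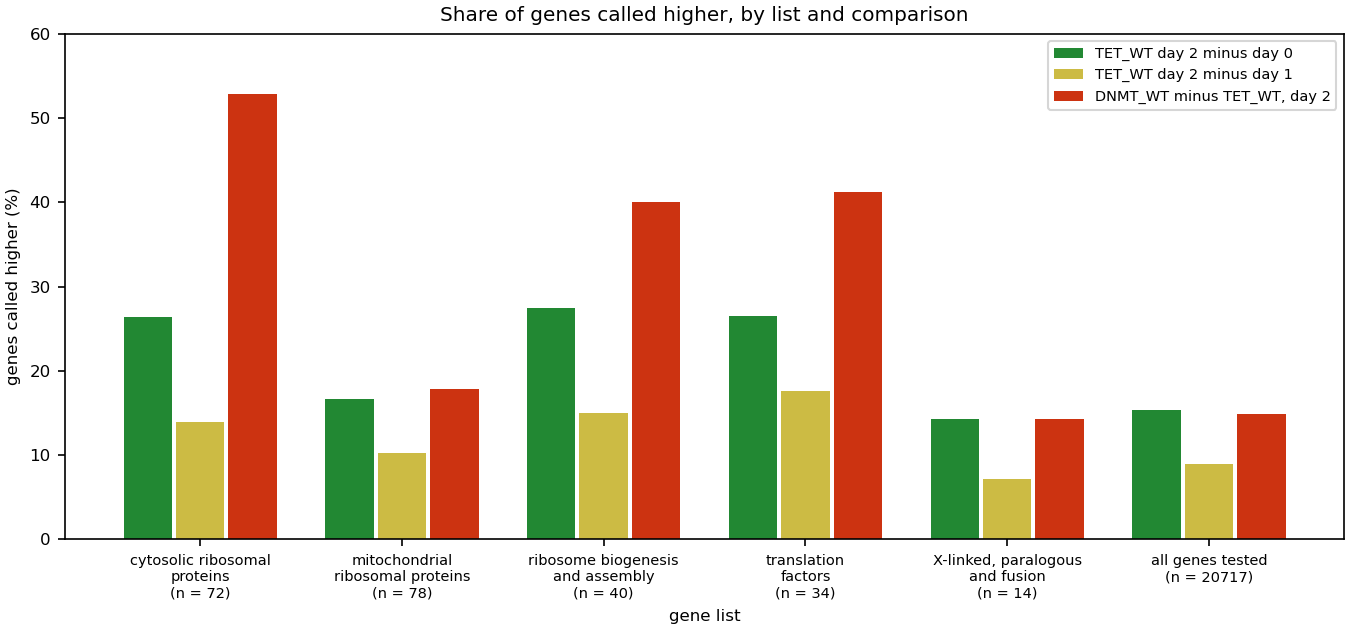
Share of genes called higher (vertical, %) in each list (horizontal, with the number of genes measured) for 3 comparisons, beside all genes tested. The cytosolic ribosomal protein genes stand at 26.4% for day 2 against day 0, 13.9% for day 2 against day 1 and 52.8% for DNMT_WT against TET_WT, where all genes stand at 15.3%, 8.99% and 14.9%.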

How the data were processed

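5hmC was read by HMCP-seq, a kit that captures DNA fragments carrying 5-hydroxymethylcytosine, in 11 libraries. Per the labels' protocols, 10 ng of genomic DNA was sonicated to about 150 bp. Reads were handled with Trim Galore 0.6.5, cutadapt 2.3 and Bowtie2 2.4.1 on GRCm38, per the submitters' processing notes. The counting tool and the treatment of reads that map to several places are not given in the sources used here.

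The authors deposited log2 RPKM, reads scaled to tile length and library total, in 1362779 tiles of 2 kb. Every value was a whole number of reads within 0.1%, with a tile without reads written as 0.9 read, so read totals were recovered: 7342015 to 51604034 per library. The precision of a tile near a start site was limited by single reads.

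The tiles of chromosomes 1 to 19 and X numbered 1316897. The lowest 10% and the highest 0.1% by mean were removed, which left 1183888. A gene's value was the mean log2 RPKM of its tested tiles, span plus 2 kb on either side, with a minimum of 3 tiles. That gave 20717 of 21631 protein-coding genes. One limma 3.58.1 fit (R 4.3.3, variance trend) covered the 4 groups taken from the titles. Tests were two-sided and Benjamini-Hochberg adjusted over all genes or all tiles, with a call at adjusted p under 0.05. limma was used because the values are log2 and not counts. The procedure was tested on simulated data.

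The members and lists were chosen with earlier results of these data known. Genes were named by a rule: the up to 10 largest differences each way among the called members, or the 3 largest each way where none was called. The rule added the 3 lowest and 3 highest members at day 0, 16 members fixed by name and, from each other list, the 2 genes of smallest p for day 2 against day 0. Some genes it names are not reported here. Genes named outside it are said to be chosen after their values were seen. Alternatives covered scaling, filters, span, depth, the fit, a replicate block, voom on the recovered reads and leaving out each library. Promoters and start sites came from RefSeq (GRCm38.p6).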

Additional observations from a re-analysis of the deposited data

How the results depend on the processing

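The direction of each median over the members stayed positive in all alternatives run for both comparisons of day 2 with an earlier day and for the 2 lines. For day 1 against day 0 it turned negative with quantile normalization (-0.087), with 20 kb added to the span (-0.015) and without day 1 replicate 2 (range over libraries left out -0.056 to 0.23). Median centring lowered the median of all genes from 0.09 to -0.05 for day 2 against day 0. Why values moved was not tested.

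Members higher at day 2 than at day 0 numbered 19 (15.3% of all genes), and 31 with voom (24.5%) or with the upper tiles by signal alone (mean at or above the median tile; 19.9%); leaving out 1 library gave 9 to 26 higher and 0 to 1 lower. The median of 0.62 became 0.48 with median centring, 0.48 with voom, 0.76 with the upper tiles by signal, 0.51 in the span alone, 0.24 with 20 kb, 0.78 in tiles touching no other gene and 0.46 at equal depth. For day 2 against day 1 the 10 members (8.99% of all genes) became 5 with median centring (3.26%), 2 with voom (3.80%), 26 with the upper tiles by signal (11.9%; median 0.84), 5 in the span alone (8.05%), 24 with 20 kb (13.7%), 16 with the compared groups alone (11.6%), 6 with no variance trend (5.07%), and 3 to 15 leaving out 1 library.

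For DNMT_WT against TET_WT the 38 members (14.9% of all genes) became 20 with quantile normalization (4.19%), 21 in the span alone (12.2%), 59 with 20 kb (23%), 24 in tiles touching no other gene (9.98%), 58 with the compared groups alone (25.1%), and 22 to 45 leaving out 1 library. Lower members numbered 1 with voom, with 20 kb and in tiles touching no other gene, and 0 to 1 leaving out 1 library. The median of 0.95 became 0.81 with median centring, 0.80 with quantile normalization, 0.83 with voom, 0.85 with the upper tiles by signal, 1.07 in the span alone, 0.56 with 20 kb, 0.77 at equal depth, and 0.88 to 0.98 leaving out 1 library.

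Single tiles depended most on depth and on the variance trend. For these alternatives the share over all tiles was not computed. A change over all tiles and one at the members therefore cannot be told apart. The 70 tiles called for day 2 against day 0 became 11 with no variance trend and 7 at equal depth. The 3 for day 1 against day 0 became 5 with no filter, 0 with no trend, at equal depth or with the compared groups alone, and 1 to 15 leaving out 1 library. The 43 for day 2 against day 1 became 0 and 1 with no trend and at equal depth, and 23 to 50 leaving out 1 library. The 38 between lines became 3 and 3, 111 with the compared groups alone, and 18 to 55. The mean differences by position, for day 2 against day 0, became 0.35 at the start with reads summed over members, 0.33 at equal depth and 0.89 in tiles touching no other gene at 2 kb, and 0.95 and 0.91 at 4 kb at equal depth and with summed reads. Between lines they became 0.43 and 1.10 at the start, and 0.93 and 1.0 at 2 kb, at equal depth and in tiles touching no other gene.

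For day 2 against day 0 the sign of these genes turned: Rpl24 (-0.0061), Rplp1 (-0.038), Rpsa (-0.043) and Rps6 (-0.091) with 20 kb; Rps12 (-0.20), Rpl30 (-0.23), Rps2 (-0.44) and Rpl13a (-0.010) in the span alone; Rpl13a (-0.73) in tiles touching no other gene; Rps2 with median centring (-0.13) and quantile normalization (-0.019); and Rps27a (0.15) with the upper tiles by signal. Leaving out 1 library gave Rps2 -0.23 to 0.20 and Rpl13a -0.35 to 0.54.

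Whether the replicate numbers pair the libraries could not be told. Deviations from the group mean correlated from -0.29 to 0.30 between libraries with the same number. Between libraries with different numbers they correlated from -0.30 to 0.29. The deviations of the 2 day 1 libraries mirror each other by construction, so these ranges cannot decide it. With the replicate number as a block, 18, 0, 10 and 39 members were higher in the 4 comparisons (19, 0, 10 and 38 without it). Alternatives on single tiles beyond the filter and trend, and those by position, were chosen after seeing the data.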
